A study of Mus musculus with 20 samples.

Results

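The genes described here are the 8 that encode the conserved oligomeric Golgi (COG) complex, *Cog1* to *Cog8*, out of 25655 genes in count tables of the mouse utricle, the inner ear organ that senses linear acceleration and gravity. They were taken by name, and the set was chosen by 1 measured feature, the lack of any *Cog5* count in the libraries of the estradiol group, which leaves the question of whether its 7 partners share this pattern. All animals were female mice of the C57BL/6J strain. The operation was at an age of 8 weeks, and the utricles were taken 4 weeks later. The sham + v group had a sham operation and a vehicle pellet. The other groups had in common the removal of the ovaries (OVX) and differed in the pellet placed under the skin, which held vehicle (OVX + v), 50 µg of estradiol released over 60 days (OVX + E2) or 2.4 mg of raloxifene released over 60 days (OVX + RAL). Raloxifene is a selective estrogen receptor modulator. Each group had 5 libraries, numbered 1 to 20 over the series, and each library was made from 1 ng of RNA with a kit that reads the 3′ ends of mRNA. The labels do not say that each library came from its own animals, so the p-values measure only the spread between these libraries, part of which may be technical.

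The COG complex tethers vesicles that return to the Golgi apparatus from later parts of the secretory pathway, and so helps to keep glycosylation enzymes in their proper cisternae. Its subunits form a lobe A with Cog1, Cog2, Cog3 and Cog4 and a lobe B with Cog5, Cog6, Cog7 and Cog8, and Cog1 and Cog8 join the lobes. Inherited loss of a subunit causes a congenital disorder of glycosylation in humans. In the utricle, the proteins of the otoconia and of the membrane beneath them are secreted glycoproteins that pass through the Golgi apparatus.

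The libraries of OVX + E2 were small, with 1123053 to 1507667 counts. Those of OVX + v held 1435156 to 2019032, those of sham + v 1507719 to 2053255 and those of OVX + RAL 1702313 to 2081747. Between 7427 and 9680 genes had a count in an OVX + E2 library, and between 8651 and 10694 in the others. Values are given as CPM, the usual scaling of the counts of a gene to the total count of its library, without correction for transcript length. A gene was taken as detected from 3 counts, which made 1.99 to 2.67 CPM in the OVX + E2 libraries and 1.44 to 2.09 CPM in the others. Such floors cover counting error only, since reads were counted without molecular identifiers. The labelled tissue was borne out by its markers, since all 6 hair cell markers and all 6 markers of the otoconial membrane and its epithelium were detected in at least 1 library of each of the 4 groups. In every library of the group, 3 of the hair cell markers were detected in OVX + E2, 4 in OVX + RAL and 5 in OVX + v and sham + v, and of the otoconial membrane markers 3 in OVX + E2 and 4 in each other group. In whole tissue, fewer cells of a type and less RNA per cell cannot be told apart.

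*Cog5* was the only COG gene without a count in all 5 libraries of a group. It lies on the plus strand of chromosome 12, from 31704868 to 31987629 on GRCm39, and its canonical transcript has 23 exons. In the OVX + v group it had 305, 152, 466, 40 and 114 counts in libraries 6 to 10, or 129.7 ± 96.8 CPM (SD, n = 5). In the OVX + RAL group it had 217, 4, 163, 247 and 327 counts in libraries 16 to 20, or 99.2 ± 58.9 CPM (SD, n = 5). In the sham + v group it had 141, 79, 0, 0 and 51 counts in libraries 1 to 5, or 28.8 ± 29.3 CPM (SD, n = 5). Thus *Cog5* was detected in 5 of 5, 5 of 5 and 3 of 5 libraries of these groups and in 0 of 5 of the OVX + E2 group. The sham + v group overlapped with both the OVX + v and the OVX + RAL groups, and its libraries 3 and 4 were without a count, as were the OVX + E2 libraries. Set against the 2.29 CPM that 3 counts make on average in an OVX + E2 library, the OVX + E2 group was at least 56.7-fold lower than the OVX + v group, at least 43.4-fold lower than the OVX + RAL group and at least 12.6-fold lower than the sham + v group (at least 8.23-fold without sham + v library 1). Because these values chose the set, they are a description without a test. At the CPM of OVX + v library 9, the lowest of its group, the smallest OVX + E2 library would hold 22.2 counts of *Cog5*. At that of OVX + RAL library 17 it would hold 2.42, under the 3 counts taken as detected, and at that of sham + v libraries 3 and 4 it would hold 0. Markers of the choroid plexus, a brain tissue, had a summed CPM of 6.41 to 276.9 in OVX + E2, 298.7 to 671 in OVX + v, 49.0 to 458 in OVX + RAL and 53.1 to 544.6 in sham + v. In OVX + E2 1 of the 3 was detected, in OVX + v 3, and in OVX + RAL and sham + v 2, with *Folr1* at 0 in all but OVX + v and *Kl* at 0 in OVX + E2. The 4 Schwann cell markers had a median summed CPM of 3814 in OVX + E2, 2483 in OVX + v, 1862 in OVX + RAL and 1894 in sham + v, and the 4 red blood cell markers 684.7, 1384, 1442 and 1181 in the same order. All 4 markers of either list were detected in each group. The part of these tissues in the *Cog5* values was not tested.

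**Figure D1:**
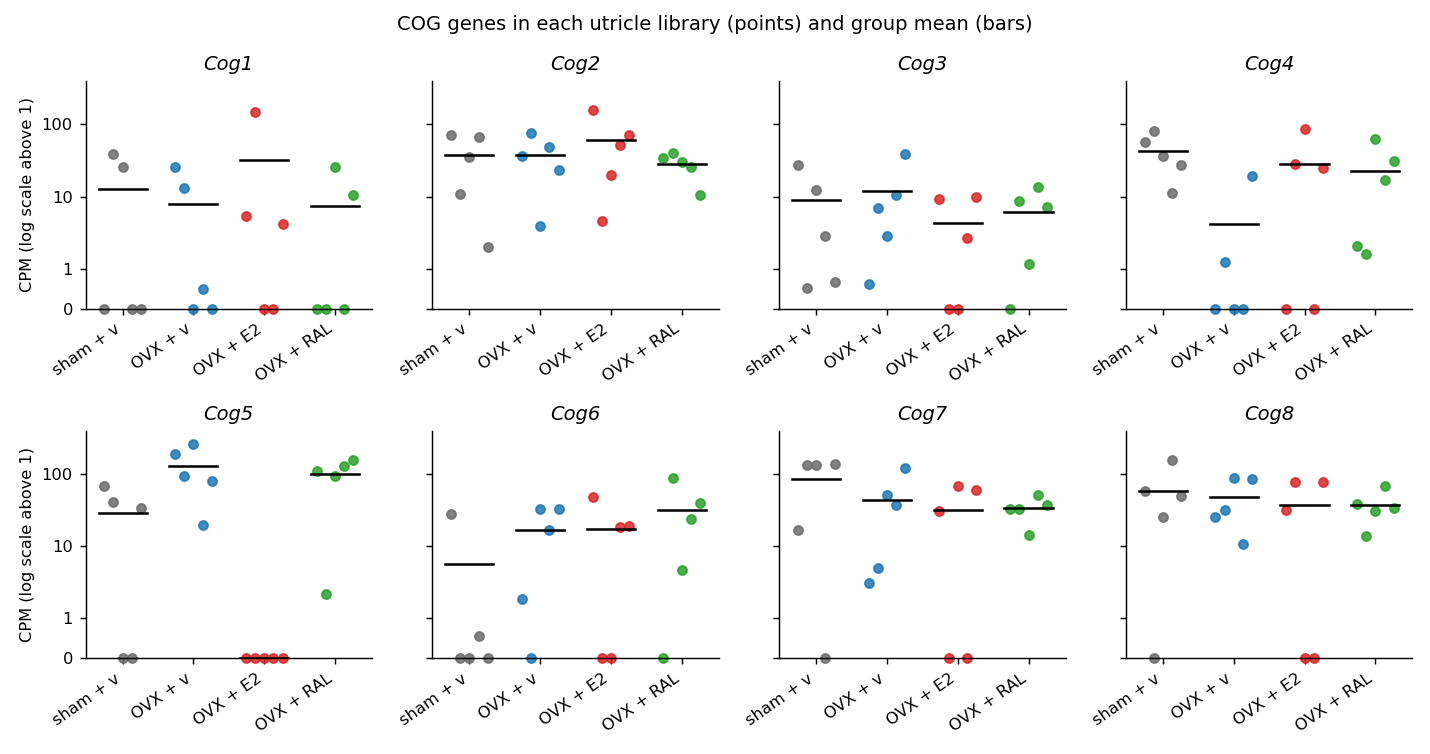
CPM of the 8 COG genes in each of the 20 libraries (points, on a log scale above 1 and a linear scale below) by group, with the group mean as a black bar. All 5 OVX + E2 libraries lie at 0 for *Cog5*, while each of the other 7 genes has at least 3 OVX + E2 libraries above 0.

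Around the start of *Cog5*, the RefSeq promoter table holds 300 bases, of which 62.7% are G or C against a median of 52.7% over all promoters. It is shown because *Cog5* is the gene that stands apart, and because it shares 142 bases with the window of *Dus4l*, a dihydrouridine synthase gene that runs the other way. The stretch is chr12:31654619-31654918 of GRCm38.p6, plus strand, in an older build than that of the count tables, and the capitals mark GGGCGG, the core letters of the GC box that Sp1 binds.
*Cog5* promoter: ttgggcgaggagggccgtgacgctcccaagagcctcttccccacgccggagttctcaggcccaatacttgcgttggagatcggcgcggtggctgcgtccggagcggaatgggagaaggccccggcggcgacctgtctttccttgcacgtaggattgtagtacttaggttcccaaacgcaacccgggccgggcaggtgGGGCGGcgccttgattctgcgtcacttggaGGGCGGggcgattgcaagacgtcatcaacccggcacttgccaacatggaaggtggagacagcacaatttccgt
On both strands, GGGCGG matched 2 times here, and it was present in 6 of 9 COG promoters and in 35.7% of 32851 promoters of the same length. The palindromic consensus of the estrogen response element was in 0 of 9 COG promoters and in 0.0700% of all. The shorter GGTCA, which the full element contains at either end, was in the promoters of *Cog1*, *Cog2*, *Cog3*, *Cog4* and *Cog8* and not of *Cog5*, and in 40.5% of all promoters. The ETS motif CCGGAAG was in 5 of 9 COG promoters, again not that of *Cog5*, and in 8.86% of all.

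Absence from a whole group was rare at this level. Among 3638 genes with at least 50 mean CPM over the other 15 libraries, *Cog5* was the single gene (0.0275%) without a count in all OVX + E2 libraries. For the other groups the number was 0, of 3666 genes for sham + v, 3685 for OVX + v and 3706 for OVX + RAL. Over all 20 libraries, *Cog5* had no count in 7, while the median was 0 among 1337 genes within 1.25-fold of its mean of 64.4 CPM, and 0.224% of those genes had no count in as many libraries or more. Of these 7 libraries, 5 are the OVX + E2 libraries whose zeros chose the set, so that this share and the single gene of 3638 restate that choice and support nothing further. Of the partners, *Cog4* and *Cog6* lay between the quartiles of genes of their level, *Cog1*, *Cog7* and *Cog8* above them and *Cog2* and *Cog3* under them. *Cog2* was counted in all 20 libraries, *Cog4* lacked a count in 5, *Cog6* in 7, and *Cog7* and *Cog8* in 3 each, where genes of like level lacked one in a median of 2, 4, 6, 1 and 1 libraries. *Cog1* lacked a count in 10 libraries and *Cog3* in 3, against medians of 7 and 11. As many libraries at 0 or more were found for 42.0% of genes of like level for *Cog4*, 40.3% for *Cog6*, 18.3% for *Cog8*, 17.1% for *Cog1* and 13.7% for *Cog7*. For *Cog3*, which had fewer zeros than most genes of its level, this share was 99.6%.

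**Figure D2:**
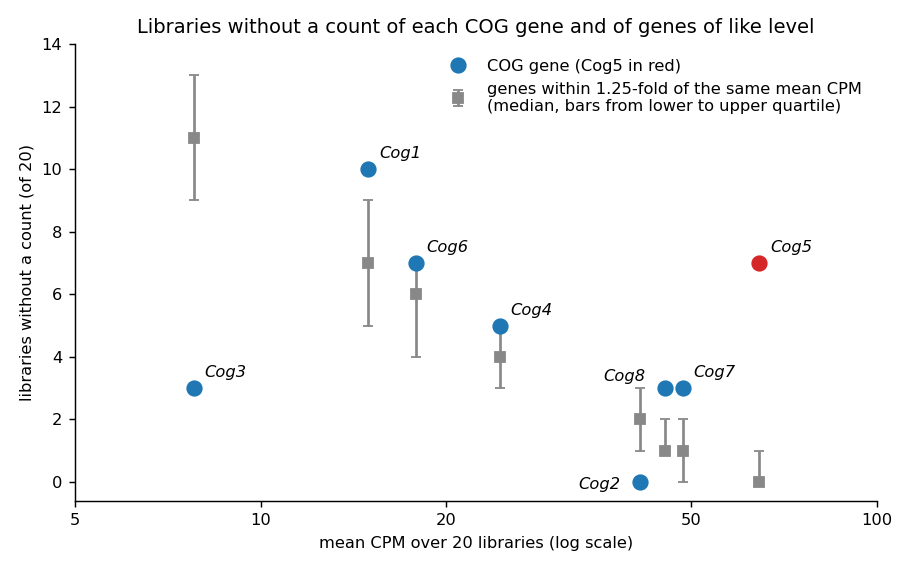
Number of libraries without a count, of 20, against the mean CPM over 20 libraries on a log scale, for each COG gene (circles) and for the genes within 1.25-fold of its mean (squares for the median, bars from lower to upper quartile). *Cog5*, at 64.4 CPM, lies at 7 libraries, 5 of them the OVX + E2 libraries that chose the set, above a median of 0, and *Cog3* lies at 3, below a median of 11.

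In lobe A, no gene followed *Cog5* in the OVX + E2 group. *Cog1*, one of the subunits that joins the lobes, had 8, 198, 0, 0 and 6 counts in the OVX + E2 libraries 11 to 15, and 41, 21, 0, 1 and 0 in the OVX + v libraries. Library 12 alone made the OVX + E2 mean of 31.8 ± 65.9 CPM (SD, n = 5) higher than the 7.84 ± 11.4 CPM (SD, n = 5) of the OVX + v group, and the groups overlapped. In the sham + v group *Cog1* was detected in 2 of 5 libraries, with 12.9 ± 18.2 CPM (SD, n = 5), and in the OVX + RAL group in 2 of 5, with 7.28 ± 11.3 CPM (SD, n = 5).

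*Cog2*, a core subunit of lobe A, was detected in every library. It had 239, 6, 25, 59 and 101 counts in the OVX + E2 libraries and 59, 122, 7, 99 and 34 in the OVX + v libraries. The means were 61.3 ± 60.3, 38.0 ± 27.3, 37.5 ± 31.9 and 28.1 ± 11.2 CPM (SD, n = 5) in the OVX + E2, OVX + v, sham + v and OVX + RAL groups. The 4 groups overlapped throughout. *Cog3*, another core subunit of lobe A, was scarce, with 14, 0, 0, 3 and 14 counts in the OVX + E2 libraries and 1, 11, 5, 21 and 55 in the OVX + v libraries. Its means were 4.36 ± 4.87 and 11.8 ± 15.3 CPM (SD, n = 5) in these groups, 8.84 ± 11.7 CPM in the sham + v group and 6.13 ± 5.61 CPM in the OVX + RAL group.

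*Cog4*, the lobe A subunit that binds Golgi SNARE proteins, was low in the OVX + v group rather than in the OVX + E2 group. Its counts were 0, 2, 0, 0 and 28 in the OVX + v libraries, and 118, 155, 62, 20 and 41 in the sham + v libraries. In the OVX + E2 libraries *Cog4* had 0, 38, 107, 0 and 36 counts, and in the OVX + RAL libraries 4, 3, 106, 32 and 65. Its means were 4.15 ± 8.60 CPM in OVX + v, 42.8 ± 27.3 CPM in sham + v, 27.9 ± 35.05 CPM in OVX + E2 and 22.8 ± 25.2 CPM in OVX + RAL (SD, n = 5 each). The OVX + v and sham + v groups overlapped only through library 10, with 19.5 CPM, and sham + v library 4, with 11.2 CPM.

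In lobe B, which holds *Cog5*, the other members were detected in 3 of 5 OVX + E2 libraries each. *Cog6* had 73, 0, 0, 21 and 27 counts there, against 3, 0, 58, 34 and 47 in the OVX + v libraries. Its means were close in these groups, 17.2 ± 19.8 and 16.9 ± 15.95 CPM (SD, n = 5), and were 31.5 ± 36.0 CPM in OVX + RAL and 5.76 ± 12.6 CPM in sham + v, where 58 of its 59 counts came from library 1. *Cog7* had 47, 0, 85, 0 and 85 counts in the OVX + E2 libraries and 5, 8, 90, 76 and 172 in the OVX + v libraries. Its means were 31.8 ± 32.1 and 43.3 ± 47.5 CPM (SD, n = 5) in these groups, 84.9 ± 70.2 CPM in sham + v and 33.7 ± 13.3 CPM in OVX + RAL.

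*Cog8*, which joins lobe B to lobe A, had 48, 102, 0, 0 and 110 counts in the OVX + E2 libraries and 41, 51, 154, 22 and 124 in the OVX + v libraries. The means were 37.2 ± 38.7 and 48.4 ± 35.9 CPM (SD, n = 5), and 58.1 ± 59.3 CPM in sham + v and 37.4 ± 20.1 CPM in OVX + RAL. For *Cog6*, *Cog7* and *Cog8* all 4 groups overlapped. Both *Cog3* and *Cog6* were without a count in OVX + E2 libraries 12 and 13, and *Cog1* and *Cog8* in libraries 13 and 14.

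Over the 7 partners, 12 of 35 values (34.3%) in the OVX + E2 group were 0, against 6 of 35 (17.1%) in OVX + v, 5 of 35 (14.3%) in OVX + RAL and 8 of 35 (22.9%) in sham + v. OVX + E2 libraries 13 and 14, which had the fewest counts of all 20, lacked 4 partners each, and library 15 lacked none. The part of depth in these numbers was not tested. The summed CPM of the partners was 211.6 ± 88.0 (73.9 to 284.5) in OVX + E2, 170.4 ± 89.2 (93.4 to 320.5) in OVX + v, 166.9 ± 35.5 (108 to 200.9) in OVX + RAL and 250.7 ± 22.4 (217.5 to 270.2) in sham + v (SD, n = 5 each). The OVX + E2 range overlapped with those of the other 3 groups. Its libraries 13 and 14, at 173.9 and 73.9 CPM, lay below every sham + v library, and *Cog1* alone made 149.5 of the 259.8 CPM of its library 12.

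Against OVX + v, none of the 7 partners passed an adjusted p of 0.05 in the OVX + E2 group by edgeR's quasi-likelihood test (p-values adjusted after Benjamini-Hochberg), in which 8 of 13695 genes were called (0.0584%) and 1908 had an unadjusted p under 0.05. Of the partners, 4 had a fold change above 0 and 3 below, with a median log2 fold change of 0.03 against -0.06 over all genes tested. The largest was that of *Cog4*, with a log2 fold change of 2.73 ± 2.19 (SE) and an adjusted p of 0.902. Its unadjusted p, 0.213, was the lowest among the partners. Without 1 library this value was 1.68 to 6.17, the highest without OVX + v library 10, where the unadjusted p was 0.0375 and the adjusted p 0.481. *Cog1* had 2.01 ± 1.93, *Cog2* 0.69 ± 1.09, *Cog6* 0.03 ± 1.997, *Cog8* -0.38 ± 1.19, *Cog7* -0.44 ± 1.30 and *Cog3* -1.42 ± 2.63 (log2 fold change ± SE). The direction of *Cog1*, *Cog2*, *Cog6* and *Cog7* turned on leaving out single libraries, for example to -1.68 for *Cog1* without library 12. By limma with pseudocounts of 1 and 0.1, *Cog8* was lower, at -1.73 and -3.03, and *Cog7* at -1.10 and -2.31, with adjusted p-values of 0.780 to 0.844. The 95% intervals were wide, for example from -3.00 to 2.11 for *Cog7* and from -1.44 to 2.82 for *Cog2*, so that changes of several fold were not detectable with these libraries. For 92 genes (0.672%) all OVX + E2 libraries lay below all OVX + v libraries, and *Cog5*, which chose the set, was the one COG gene among them.

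Against the other 3 groups together, in a fit of all 20 libraries, no partner passed edgeR's quasi-likelihood test either, with adjusted p from 0.858 for *Cog1* upward and standard errors from 0.86 to 2.11. In this fit 258 of 14870 genes were called (1.74%) and 1651 had an unadjusted p under 0.05. Of the 258 genes called, 238 were without a count in all libraries of at least 1 group. DESeq2 called 150 genes, edgeR with its default filter on low counts called 2, and leaving out 1 library of the other 3 groups left 11 to 20.

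**Figure D3:**
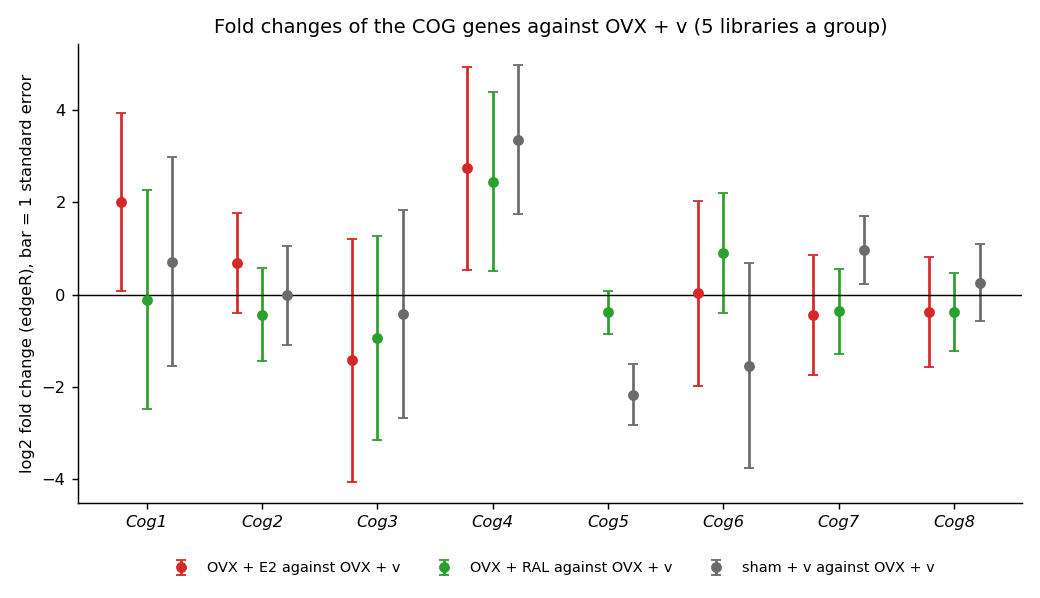
Log2 fold change from OVX + v by edgeR for each COG gene (points) with 1 standard error (bars), in the OVX + E2 (red), OVX + RAL (green) and sham + v (gray) groups of 5 libraries. *Cog5* has no red point since its values in OVX + E2 chose the set, and the bars of the partners are 0.74 to 2.63 long on either side.

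With raloxifene, *Cog5* differed from its OVX + v level by less than the spread, with a log2 fold change of -0.39 ± 0.48 (SE) and an adjusted p of 1.00 by edgeR's quasi-likelihood test. Its interval ran from -1.32 to 0.55, and 4 of 14002 genes were called in this comparison (0.0286%), none of them a COG gene, with 1696 under an unadjusted p of 0.05. Leaving out OVX + v library 8, which had 466 counts, turned the value to 0.05. Among the partners, *Cog4* had the largest value, 2.45 ± 1.93 (SE), with an adjusted p of 0.980. It was 5.93 without OVX + v library 10, with an adjusted p of 0.572.

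*Cog5* was lower in the sham + v than in the OVX + v libraries by 2.17 on the log2 scale, but did not pass the threshold. The log2 fold change was -2.17 ± 0.66 (SE), with an unadjusted p of 0.000993 and an adjusted p of 0.363 by edgeR's quasi-likelihood test. The unadjusted p was 0.119 by DESeq2, 0.0332 with the default filter of edgeR and 0.0133 in the fit of all 4 groups, with adjusted p-values of 1.00, 1.00 and 0.478. By limma with pseudocounts of 1 and 0.1 the value was -3.25 and -4.58, with unadjusted p-values of 0.000410 and 0.00251 and adjusted ones of 0.436 and 0.885. By edgeR with TMM the unadjusted p was 0.000891 and the adjusted p 0.362. Without sham + v library 1, edgeR gave -2.78, with an unadjusted p of 0.000158 and an adjusted p of 0.154. The group ranges overlapped, since sham + v libraries 1, 2 and 5 lay above OVX + v library 9 at 19.8 CPM. For *Cog4* the log2 fold change of sham + v against OVX + v was 3.36 ± 1.62 (SE), with an unadjusted p of 0.0382 and an adjusted p of 0.363. It was 6.84 without OVX + v library 10, with an unadjusted p of 0.00160 and an adjusted p of 0.584, and 6.18 by limma with a pseudocount of 0.1. *Cog7* had 0.97 ± 0.74 and *Cog6* -1.53 ± 2.21 (log2 fold change ± SE), and no COG gene was called. Without sham + v library 1, which held 58 of the 59 *Cog6* counts of its group, *Cog6* was at -6.30 with an unadjusted p of 0.0514 and an adjusted p of 0.486, while *Cog7* ran from 0.67 without OVX + v library 6 to 1.80 without library 10, with unadjusted p-values of 0.365 and 0.0427 and adjusted p-values of 1.00 and 0.584, and was at 0.58 and 0.028 by limma with pseudocounts of 1 and 0.1. In this comparison 2 of 13825 genes were called (0.0145%), and 1727 had an unadjusted p under 0.05. The 3 comparisons share the OVX + v libraries, in which *Cog5* was highest and *Cog4* lowest, so that their values for these genes are not independent of each other.

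From library to library, the COG genes correlated in both directions, with 8 of 21 pairs of partners above 0 and 13 below. Over 20 libraries, the Spearman correlation of CPM among the 21 pairs of partners ran from -0.46 for *Cog2* and *Cog7* to 0.61 for *Cog3* and *Cog6*, with a median of -0.07. Between *Cog5* and its partners it ran from -0.33 for *Cog2* to 0.20 for *Cog8*, and over the 15 libraries outside the OVX + E2 group from -0.38 for *Cog2* to 0.27 for *Cog6*. These points share their library, and with it their depth, so that the correlations are a description.

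The 3′ part of *Cog5* overlaps that of *Hbp1*, a transcription factor gene on the minus strand of chromosome 12, from 31976253 to 32000534 on GRCm39. The 2 genes run toward each other, and the canonical *Cog5* transcript ends at 31987629, inside *Hbp1*. In the GENCODE vM39 annotation the exons of both genes share 1643 bases on opposite strands. All of the last 400 bases of the canonical *Hbp1* transcript lie within exons pooled over the 21 *Cog5* transcripts of vM39. Of the last 400 bases of the canonical *Cog5* transcript, 64 (16%) lie within exons of *Hbp1*. Whether the annotation used for counting holds the same exons was not checked. The authors mapped the reads with default settings, and whether these used the strand of the reads is not given in the sources used here. Reads of the overlap thus cannot be told apart between the genes.

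*Hbp1* had counts in every OVX + E2 library, 139, 53, 43, 83 and 73. In the OVX + v libraries it had 0, 10, 0, 239 and 103 counts, in the sham + v libraries 223, 5, 363, 131 and 263, and in the OVX + RAL libraries 177, 160, 129, 239 and 0. The 7 libraries without *Cog5* all had at least 3 counts of *Hbp1*, and the 3 libraries without *Hbp1* all had *Cog5*. No library lacked both, and 10 had at least 3 counts of each. Of the 7 libraries without *Cog5*, 5 are the OVX + E2 libraries whose zeros chose the set. With only 3 of 20 libraries without *Hbp1*, these numbers are a description, and nothing is read from them. OVX + v libraries 6 and 8, which lacked *Hbp1*, had the highest *Cog5* levels of their group, and OVX + v library 9, with the most *Hbp1*, had the lowest. The other groups were mixed. OVX + RAL library 20, without *Hbp1*, had the highest *Cog5*, but library 19, with the most *Hbp1* at 125.4 CPM, had 129.6 CPM of *Cog5*. Sham + v library 3, with the most *Hbp1*, had no *Cog5*, but library 1 had the highest *Cog5*, 68.7 CPM, with 108.6 CPM of *Hbp1*. The Spearman correlation of *Cog5* with *Hbp1* was -0.31 over 20 libraries and -0.57 over the 15 outside the OVX + E2 group.

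By edgeR's quasi-likelihood test, *Hbp1* did not pass the threshold against OVX + v in any group. The log2 fold change was 0.57 ± 1.10 (SE) in OVX + E2 with an adjusted p of 1.00, 0.94 ± 0.75 in OVX + RAL with an adjusted p of 0.986, and 1.54 ± 0.66 in sham + v with an unadjusted p of 0.0190 and an adjusted p of 0.363. Counted as 1 feature, which was done after the values were seen, *Cog5* and *Hbp1* had 58.4 ± 24.2 CPM (34.5 to 92.2) in OVX + E2, 169 ± 61.8 CPM (101.6 to 264) in OVX + v, 174.9 ± 61.2 CPM (88.3 to 255) in OVX + RAL and 143.6 ± 79.5 CPM (44.1 to 215) in sham + v (SD, n = 5 each). Every OVX + E2 sum lay below every OVX + v sum, and the OVX + E2 range overlapped with those of OVX + RAL and sham + v. In OVX + E2 the sum is *Hbp1* alone, and the zeros of *Cog5* that chose the set partly fix this order, so that it supports nothing and no test was made.

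**Figure D4:**
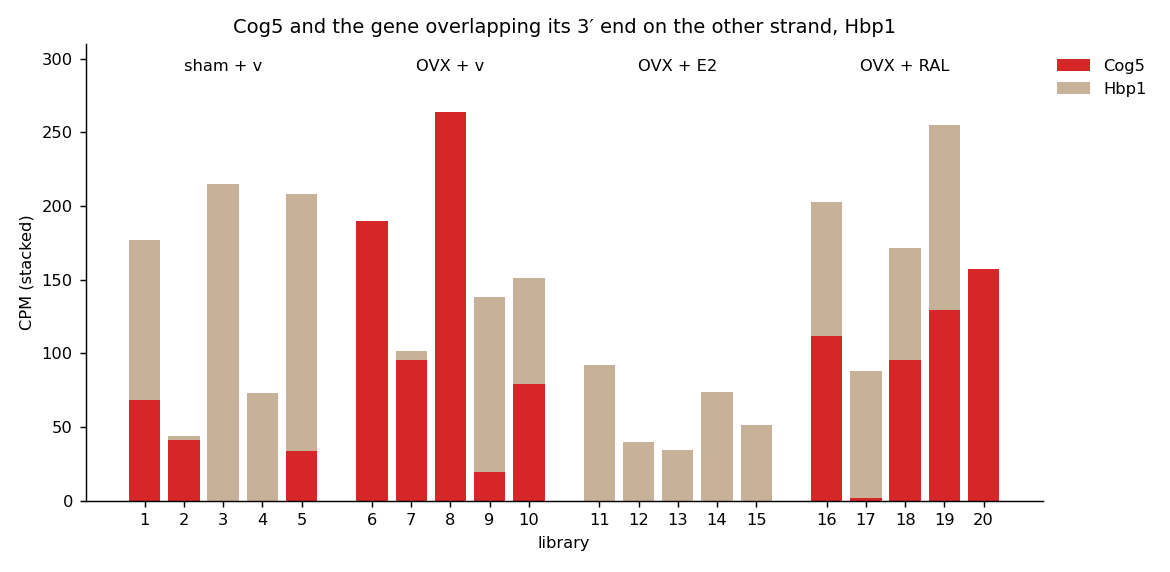
Stacked CPM of *Cog5* (red) and *Hbp1* (tan) in libraries 1 to 20, by group. The 5 OVX + E2 bars hold *Hbp1* alone, at 34.5 to 92.2 CPM, as do sham + v libraries 3 and 4, while libraries 6, 8 and 20 hold *Cog5* alone.

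Of the other neighbors of *Cog5*, *Dus4l* and *Gpr22* had few counts or none. *Dus4l*, which starts 42 bases before *Cog5* and runs the other way, had 1 OVX + E2 library above 0, but was also at 0 in 3 of 5 libraries of each other group. *Gpr22*, a receptor gene within *Cog5* on the other strand, was without a count in all 20 libraries. *Prkar2b*, which encodes a regulatory subunit of protein kinase A and lies 20845 bases beyond *Cog5*, was at 22.4 ± 22.5 CPM in OVX + E2 and 40.7 ± 33.8 CPM in OVX + v (SD, n = 5), with a log2 fold change of -0.86 ± 1.46 (SE).

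Some partners overlap other genes as well. All of the last 400 bases of *Cog1* lie within exons of *Fam104a* on the other strand, and the reverse also holds. *Fam104a* was counted in every library, with group means of 136.9 to 202.7 CPM, and its part in the *Cog1* values was not tested. In vM39 the end of *Cog2* lies within exons of *Agt*, the angiotensinogen gene, and of 338 windows of 63 bases at the end of *Cog2*, 151 (44.7%) recur in other genes on the same strand and all 338 on the opposite strand. In the count tables *Cog2* stops at 125278747 on chromosome 8, before *Agt*, so that this stretch of vM39 was not part of the *Cog2* that was counted. In vM39 *Cog8* overlaps *Vps4a* and *Nip7* on the other strand and *Pdf* on its own strand. By the coordinates of the count tables, *Vps4a* and *Nip7* lie 533 and 187 bases away from *Cog8*. Its 3′ end in the count tables, at 107772921 on chromosome 8, lies within the bounds of *Pdf*. *Pdf* was at 13.3 ± 23.8 CPM (0 to 55.2) in OVX + E2, at 0 in all OVX + v libraries, at 1.56 ± 3.48 CPM in sham + v and at 0.235 ± 0.525 CPM in OVX + RAL (SD, n = 5). It was not called in OVX + E2 against OVX + v, with an unadjusted p of 0.0181 and an adjusted p of 0.351 by edgeR's quasi-likelihood test. The sum of *Cog8* and *Pdf* was 50.5 ± 35.1 CPM in OVX + E2 and 48.4 ± 35.9 CPM in OVX + v. *Cog8* alone differed between these groups by less than its error, at -0.38 ± 1.19 (log2 fold change ± SE). The *Pdf* mean in OVX + E2 rested largely on the library at 55.2 CPM, since its median was 0.802 CPM. Nothing is therefore read from the sum. The part of *Pdf* in the *Cog8* values was not tested. The last 400 bases of *Cog3*, *Cog4*, *Cog6* and *Cog7* share none with exons of other genes. Of the 338 windows at the end of *Cog5*, 0 recurred in other genes on either strand, since the 64 bases within exons of *Hbp1* lie in stretches of 51 and 13 bases, each shorter than a window.

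The genes whose CPM ran most like that of *Cog5* over the 20 libraries, of 7261 genes with at least 20 mean CPM, were *Ostc*, *Stard8*, *Acaa1a*, *Mettl16* and *Gpam*, with Spearman correlations of 0.78, 0.75, 0.74, 0.72 and 0.71. *Ostc*, which encodes a subunit of the oligosaccharyltransferase that adds N-glycans to proteins, had 43.6 CPM in OVX + E2 against 132 CPM in OVX + v and was counted in every library. *Stard8* had 0.160 CPM in OVX + E2 against 33.0 CPM in OVX + v, with 4 OVX + E2 libraries at 0. *Mettl16*, an RNA methyltransferase gene, had 0.554 CPM in OVX + E2 against 45.3 CPM in OVX + v, with 3 at 0. *Acaa1a*, of peroxisomal fatty acid oxidation, and *Gpam*, of glycerolipid synthesis, had 20.5 and 11.4 CPM in OVX + E2 against 89.9 and 52.3 CPM in OVX + v. These levels are group means of 5 libraries. Because the ranking included the OVX + E2 zeros of *Cog5* that chose the set, low OVX + E2 means in these genes largely follow from it, and nothing is read from them. *Cog2*, *Cog4*, *Cog7* and *Cog8* were ranked and were not among the 5 genes, while *Cog1*, *Cog3* and *Cog6*, at 14.95, 7.78 and 17.8 mean CPM, lay below the minimum and were not ranked.

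Of the genes without a count in all 5 OVX + E2 libraries, the next after *Cog5* by level in OVX + v were *Rexo4*, an exonuclease gene, with 48.5 ± 41.9 CPM, *Myh4*, a muscle myosin gene, with 34.8 ± 33.0 CPM, *Hars2*, the mitochondrial histidyl-tRNA synthetase gene, with 34.5 ± 14.6 CPM, and *Ppp2r1b*, a scaffold subunit gene of protein phosphatase 2A, with 33.6 ± 26.0 CPM (SD, n = 5). They were ranked by their OVX + v level, so that a large gap from it follows in part from the ranking. In the same order, their means were 13.3, 12.4, 14.8 and 31.8 CPM in sham + v and 19.8, 37.4, 19.3 and 22.7 CPM in OVX + RAL. They were detected in 2, 1, 2 and 4 of the 5 sham + v libraries.

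Genes that work beside the COG complex were taken from 8 lists, on Golgi SNAREs, golgins, the COPI coat, Golgi Rab GTPases, other tethers of the same fold, TRAPP tethers, glycosylation enzymes and Golgi transporters. No gene of these lists was called by edgeR's quasi-likelihood test in any of the 3 comparisons with OVX + v, where the share of all genes called was 0.0584% for OVX + E2, 0.0286% for OVX + RAL and 0.0145% for sham + v. In OVX + E2, 1 of 137 list genes tested (0.730%), *Slc35b1*, had an unadjusted p under 0.05, against 13.9% of all genes tested. In the fit against the other 3 groups it was 7 of 139 (5.04%), 3 of them in the COPI coat, against 11.1% of all genes. The lowest adjusted p by edgeR's quasi-likelihood test was 0.0512 there, for *Slc35b1*. With edgeR's default filter on low counts, 149 of 8354 genes in OVX + E2 against OVX + v, and 795 of 11109 in this fit, were under 0.05. The shares over all genes thus depend on the filter. The list genes were not matched in level, so nothing is read from these gaps. Among the SNAREs and SM proteins that fuse vesicles with the Golgi, 9 of 17 were above 0 and 8 below in OVX + E2 against OVX + v, with a median log2 fold change of 0.01. *Bet1l* had 133.9 ± 107 CPM in OVX + E2 and 133.1 ± 62.6 CPM in OVX + v, and *Stx18* had 2.97 ± 5.83 and 19.2 ± 23.9 CPM (SD, n = 5).

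The golgins and GRASPs, which hold cisternae and catch vesicles, had 8 of 15 above 0 and a median log2 fold change of 0.00. *Golgb1*, the gene of giantin, was at 220.7 ± 78.9 CPM in OVX + E2 and 198.8 ± 78.7 CPM in OVX + v, and *Golga4* at 209.5 ± 72.1 and 133.9 ± 27.5 CPM (SD, n = 5). For the COPI coat, which forms the vesicles that COG tethers, 9 of 13 were above 0 and the median was 0.30, with *Copg2* at 1.63 ± 0.88 (log2 fold change ± SE) and an adjusted p of 0.419 by edgeR's quasi-likelihood test. *Arf1*, the GTPase that recruits this coat, was at 541 ± 161 CPM in OVX + E2 and 439 ± 63.1 CPM in OVX + v (SD, n = 5).

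Of the Golgi Rab GTPases, 6 of 13 tested were above 0, and *Rab6a*, which binds COG, had a log2 fold change of 0.73 ± 0.49 (SE). *Rab14* was at 272 ± 54.4 CPM in OVX + E2 and 312 ± 101 CPM in OVX + v (SD, n = 5). The other tethers of the COG fold, the exocyst, GARP and Dsl1 subunits, had 8 of 17 above 0 and a median of -0.17, with *Exoc4* at 0.18 ± 0.83 and *Vps51* at -4.30 ± 3.20 (log2 fold change ± SE). *Vps51* was at 0 in 4 OVX + E2 libraries and also in 4 sham + v libraries. The TRAPP tethers had 7 of 14 above 0, with *Trappc1* at 0.36 ± 0.81 and *Trappc9* at -2.79 ± 2.27 (log2 fold change ± SE). *Trappc9* was at 0 in 4 OVX + E2, 2 OVX + v, 1 sham + v and 0 OVX + RAL libraries.

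Among the glycosylation enzymes, whose place in the Golgi depends on COG, 17 of 31 were above 0 and the median log2 fold change was 0.14. *St3gal5*, the ganglioside GM3 synthase gene, was at 176.2 ± 84.6 CPM in OVX + E2 and 176 ± 30.7 CPM in OVX + v, and *Mgat4a*, an N-glycan branching enzyme gene, at 6.15 ± 12.3 and 46.5 ± 43.8 CPM (SD, n = 5). Among the sugar and ion transporters of the Golgi, 7 of 17 tested were above 0 and the median was -0.28. Of the 19 genes listed, *Slc9a7* was at 0 in all OVX + E2 libraries, but also in all OVX + v and sham + v libraries, with 26 counts in 1 OVX + RAL library. *Slc35b1* was at 12.95 ± 12.7 CPM in OVX + E2 and 92.9 ± 43.0 CPM in OVX + v (SD, n = 5), with a log2 fold change of -2.84 ± 1.11 (SE) and an adjusted p of 0.351 by edgeR's quasi-likelihood test. *Atp6ap1*, of the proton pump, had -0.45 ± 0.40 (log2 fold change ± SE). Over all genes tested the median was -0.06.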

How the data were processed

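The authors trimmed the reads of 20 utricle libraries, removing the first 12 nucleotides and reads under 20 nucleotides, and mapped them to GRCm39 in CLC Genomics Workbench. The values the authors deposited as total counts are reads counted on each gene, not normalized. The authors' columns of normalized values, fold changes and p-values were not used. The authors state that mapping used default settings. How these handle strand and reads matching several genes is not given in the sources used here.

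Groups were taken from the labels. Each group was compared with OVX + v (5 against 5 libraries), and OVX + E2 with the mean of the other 3 groups, by glmQLFit and glmQLFTest of edgeR 4.0.16 (R 4.3.3) with the total count as library size. Genes with at least 10 counts over the fitted libraries were tested, with Benjamini-Hochberg adjustment and a threshold of 0.05. The SE was taken as the size of the log2 change over the square root of F, and 95% intervals from it by the normal distribution. DESeq2 1.42.0, limma 3.58.1 with pseudocounts of 1 and 0.1, TMM, other filters, robust fitting, a fit of all 4 groups and leaving out each library were alternatives. The pipeline was run on simulated counts with a dispersion of 0.1. Genes at the levels of the COG genes were more spread, with a median SD of 56.2% to 144% of the mean in OVX + v. The simulation thus does not bear on the results for these genes.

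The members and lists were chosen with earlier results of these data known. Genes named are the COG genes, in each list the one with the smallest p in OVX + E2 against OVX + v and the one with the highest level, the neighbors of *Cog5*, the 5 genes most like it and the 5 highest in OVX + v among those at 0 in OVX + E2. *Fam104a*, *Agt*, *Vps4a*, *Nip7* and *Pdf* were added for their overlaps. Overlaps were read from GENCODE vM39 on GRCm39. Of 40 pairs of libraries within groups, 0 had identical counts. The deposited tables held 0 count columns of other samples.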

Additional observations from a re-analysis of the deposited data

Results flagged for a closer look

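Each COG gene in each group where it had counts, and the summed partners in each group, made 35 sets of 5 values. In 4 of these, 1 library lay far from the other 4, where chance alone flags about 1 in 20 sets of normally distributed values. These CPM values are skewed and hold many zeros, so that the 4 sets cannot be read against that rate. *Cog1* had 149.5 CPM in OVX + E2 library 12, and 0 to 5.31 CPM in the other 4 libraries of that group. *Cog3* had 38.3 CPM in OVX + v library 10, against 0.623 to 10.4 CPM in the others. *Cog4* had 19.5 CPM in the same OVX + v library 10, against 0 to 1.25 CPM. *Cog6* had 28.2 CPM in sham + v library 1, against 0 to 0.559 CPM. Each was a library far above the rest. Without library 12, the log2 fold change of *Cog1* in OVX + E2 against OVX + v was -1.68, so that its direction rested on that library.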

How the results depend on the processing

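No paired analysis was possible because the library numbers run from 1 to 20 and no number is shared between groups. None of the 7 partners passed the threshold in any of the 4 comparisons under any alternative that gave a test. With the default filter of edgeR *Cog1* was not tested in any comparison with OVX + v, *Cog4* not in those of OVX + E2 and OVX + RAL and *Cog6* not in that of sham + v, and DESeq2 gave no p for *Cog1* in OVX + E2 against OVX + v. Of 227 values of single COG genes under alternatives other than leaving out a library, 217 kept their direction and side of the threshold, though not always their size (*Cog8* in OVX + E2 against OVX + v ran from -3.03 to -0.38), and 10 changed direction. In OVX + E2 against OVX + v, the log2 fold change of *Cog6* was -0.082 with TMM, and -0.32 and -0.88 by limma with pseudocounts of 1 and 0.1. In the same order, limma gave 0.50 and 0.59 for *Cog7* in OVX + RAL, -0.53 and -1.17 for *Cog8* in sham + v, and -0.10 and -0.63 for *Cog4* in OVX + E2 against the other 3 groups. With a pseudocount of 0.1 *Cog1* was at -0.20 in sham + v. The cause was not tested. Leaving out 1 library in turn reversed 27 of 370 values. The ranges in OVX + E2 against OVX + v were -1.68 to 3.19 for *Cog1*, -0.039 to 1.11 for *Cog2*, -1.95 to -0.25 for *Cog3* (the latter without OVX + v library 10), -0.83 to -0.055 for *Cog8*, -0.84 to 0.42 for *Cog6* and -0.93 to 0.39 for *Cog7*. In OVX + RAL they were -1.54 to 1.08 for *Cog1*, -1.46 to 0.24 for *Cog3*, -0.66 to 0.047 for *Cog5* and -0.66 to 0.47 for *Cog7*. In sham + v they were -0.30 to 1.89 for *Cog1*, -0.39 to 0.40 for *Cog2*, -1.51 to 0.76 for *Cog3* and -0.53 to 0.59 for *Cog8*. Against the other 3 groups they were -1.88 to 2.29 for *Cog1*, -0.24 to 1.96 for *Cog4* and -0.63 to 1.82 for *Cog6*. *Cog5* in sham + v against OVX + v stayed below 0 in every alternative, from -4.58 to -2.17, and from -2.78 to -1.74 without 1 library, with adjusted p-values of 0.154 to 0.584 without 1 library and of 0.362 to 1.00 in the others.

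The number of genes called moved more. In OVX + E2 against OVX + v it was 8, and 35 by DESeq2, 1 with the default filter of edgeR, 3 by limma with a pseudocount of 0.1, 4 with robust fitting, and 6 to 17 without 1 library, the highest without library 11. In OVX + RAL it was 4, and 0 with the default filter, by limma with a pseudocount of 0.1 and with robust fitting, and 3 to 11 without 1 library. It was 8 without library 7 or 18, 9 without library 20 and 11 without library 16. In the default filter, limma and robust fits that called 0, the numbers at an unadjusted p under 0.05 were 171, 630 and 1668 genes. In sham + v it was 2, and 1 with TMM and by DESeq2, 4 by limma with a pseudocount of 1, 0 with the default filter, with a pseudocount of 0.1 and with robust fitting, and 1 to 10 without 1 library, the highest without library 1. The fits that called 0 had 148, 588 and 1709 genes at an unadjusted p under 0.05 in the same order. In OVX + E2 against the other 3 groups it was 258, and 150 by DESeq2, 2 with the default filter, 6 and 9 by limma, and 11 to 254 without 1 library, being 11 to 20 without any library of the other 3 groups. With TMM the median log2 fold change of all genes in OVX + E2 against OVX + v was -0.17 in place of -0.06. The bound for *Cog5* moved from 56.7-fold to between 42.0 and 68.7-fold without 1 OVX + v library, from 43.4-fold to between 37.1 and 54.0-fold without 1 OVX + RAL library, and from 12.6-fold to between 8.23 and 15.7-fold without 1 sham + v library, an alternative chosen after the data were seen. Standard errors of the partners reached 2.63 on the log2 scale, and the part of depth in them was not tested.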
